A study of Bos taurus with 17 samples.

Results

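Wnt antagonists, ligands and receptors were followed in bovine cumulus cells, which are somatic cells surrounding the oocyte in its follicle. The 10 genes were SFRP4, SFRP1, SFRP2 and DKK3 (secreted antagonists), WNT4 and WNT5A (ligands), FZD1, FZD4 and LRP6 (receptors) and AXIN2 (a feedback gene of the pathway). They were selected on gene symbol, with the stage differences of these same arrays in view, and their probes were found by the gene name or the description that the array design gives. They are 10 of the 19820 genes of the array, counted by name with unnamed probes taken singly, and are covered by 15 of its 21475 probes. Since the values below were known when the genes were chosen, they are given as a description, and no test is drawn from them.

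Total RNA of 17 samples carried the dye Cy3 and was read on 17 Agilent 1-colour arrays. NC1 samples were cumulus cells of 6 prepubertal calves aged 3 to 6 months, recovered by aspiration after slaughter, with a compact cumulus around prophase I oocytes that are not developmentally competent. C1 samples came by the same procedure from 6 adult cows of different ages, also with a compact cumulus, around competent prophase I oocytes. C2 samples came from 5 non-lactating Holstein cows aged 3 to 5 years that had received progestagen implants, a porcine FSH/LH preparation and prostaglandin, and were recovered by ovum pick-up from large follicles with an expanded cumulus around metaphase II oocytes. Age therefore changed with the stage between NC1 and C1. Hormone treatment, follicle size and way of collection changed with it between C1 and C2. The paper gives breed and lactation state for the C2 cows only, so these and age may also differ between C1 and C2. The comparison of C2 with NC1 carried all of these together, and none can be told apart from the stage. The p-values behind the calls given here measure the spread between these samples. The fit took this spread over all stages together, so the comparison of C1 with NC1 also carried the spread of C2. Standard errors of the C2 differences used the same joint spread. Where C2 varied most, as for SFRP4 (SD 2.09 in C2 and 0.52 in C1), they were smaller than the stages' own spreads would give. The intervals and calls of such genes rest on these smaller errors.

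Wnt ligands bind Frizzled receptors, and with the co-receptor LRP6 this stops the destruction complex, so that beta-catenin builds up and acts in the nucleus with TCF and LEF factors. Secreted frizzled-related proteins carry a Frizzled-like domain and bind Wnt ligands outside the cell, and Dickkopf proteins act on the co-receptors or, in the case of DKK3, by less settled routes. In the ovary, Wnt4 takes part in female gonad development, Fzd4 in corpus luteum function, and Sfrp4 is known as an ovulation-related and luteal gene of rodent granulosa cells.

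Levels are log2 signal after subtraction of the array's median, so that 0 is the median probe of an array, and 1 unit is a doubling of signal. Levels can be compared between arrays for 1 probe, and not between probes. Each stage had to show a probe as present on 80% or more of its arrays for the probe to be valid, which held for 13865 probes. A gene was called when the adjusted p of limma was under 0.01 over all valid probes. The percentages of genes called or not overlapping were taken over the 13061 genes with a valid probe, each represented by its brightest valid probe.

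The 17 arrays lay on 6 slides, each with 1 NC1 and 1 C1 array and 5 of them with 1 C2 array, and were scanned on 2 days, with all 3 stages on each day. The C2 arrays stood apart from each other. The SD of the log2 difference was 0.444 between C2 arrays 1 and 5 and 0.512 between C2 arrays 3 and 4, and it was 1.05 to 1.27 for every other pair of C2 arrays. Pairs of NC1 arrays differed by 0.431 to 0.694 and pairs of C1 arrays by 0.453 to 0.756. C2 arrays 1, 2 and 5 were scanned on day 1 and arrays 3 and 4 on day 2. Of 9 cumulus and granulosa markers on the array, each was well above background on at least 3 arrays of every stage, and all 4 genes of the expanded cumulus (HAS2, TNFAIP6, PTX3 and PTGS2) rose in C2 against C1. The sample labels name ovarian follicles as the tissue, whereas the protocols describe isolated cumulus cells.

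Of the 15 probes, 8 had a gene in the RefSeq table used for symbols, and the other 7 kept the name given by the array design. A sequence of 60 bases was deposited for 12 of the probes. The last 30 bases of the probes behind the main values, and of each gene whose probes gave unlike patterns, are printed as deposited, to show where the array read each gene. Capitals mark AATAAA, the commonest polyadenylation signal, searched in these letters on the printed strand only.
SFRP4, A_73_120817: acctgatatgtgcattgaaaAATAAAtgcc
SFRP1, A_73_107025: cttgactaaaatcactcaattaatcagtgg
DKK3, A_73_116904: atcatgtatgcatccagagttattaaatgt
FZD4, A_73_104301: tacaaacgtatgtctgcattaatgtctgta
AXIN2, A_73_110169: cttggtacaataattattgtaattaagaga
AXIN2, A_73_108476: aggaggaggagtggacttgtgccgacttca
WNT5A, A_73_115432: tgcattgtagatcagttttatgtgcagtgt
WNT5A, A_73_102926: tcttccaagttcttcctaatggctttggcc
Only the SFRP4 probe held the motif among the 12 sequences of these genes, and 12.2% of the 15239 probes with a deposited sequence held it in their last 30 bases.

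SFRP4, a secreted antagonist that binds Wnt ligands, gave the widest difference between stages of these genes. Its level in NC1 ranged from 6.25 to 7.20 with a median of 6.51, and in C1 from 5.06 to 6.20 with a median of 5.76. In C2 it was -2.34, 1.73, 1.05, 1.63 and -2.29 in replicates 1 to 5. All C2 arrays lay below all C1 and NC1 arrays, and C2 arrays 1 and 5 lay far below the other C2 arrays. The mean was 6.68 ± 0.41 (SD, n = 6) in NC1, 5.67 ± 0.52 (SD, n = 6) in C1 and -0.05 ± 2.09 (SD, n = 5) in C2. The difference of C2 from C1 was -5.72 (SE 0.64), which is a 52.7-fold lower signal, and that from NC1 was -6.72 (SE 0.64).

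The order of SFRP4 was thus NC1, C1 and C2 from high to low. The difference of C1 from NC1 was -1.0 (SE 0.61), and each of the 6 C1 arrays was below each of the 6 NC1 arrays, the closest being at 6.20 and 6.25. Within slides, C1 was below NC1 on 6 of 6 slides. The 95% interval of this difference, which also carried the wider spread of the C2 arrays (SD 2.09), ran from -2.28 to 0.28. The gene was not called between NC1 and C1.

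The SFRP4 difference of C2 from C1 had the same direction on both scan days, at -6.91 on day 1 and -4.07 on day 2. Leaving out C2 arrays 1 and 5 brought it to -4.21, and leaving out arrays 3 and 4 to -6.64. In bulk samples such as these, fewer cells of a type and less RNA per cell cannot be told apart. The summed signal of the cumulus and granulosa markers (1 being the median probe) was 1140 and 1150 on C2 arrays 1 and 5. It was 2610 to 4010 on the other C2 arrays, 3140 to 4500 in C1 and 2870 to 6920 in NC1. Most of this sum came from INHA and INHBA, the brightest markers, and the others did not all vary alike. Over the C2 arrays FOXL2 ranged from 5.02 to 5.37 and NR5A2 from 6.61 to 7.77, whereas CYP19A1 ranged from -3.74 to 2.43. Of the 8 markers of this list with a valid probe, FSHR, AMH, FOXL2 and CYP19A1 fell in C2 against C1 and 0 rose. INHA, INHBA, NR5A2 and GATM were not called. The authors report lower AMH and FSHR at C2 in mouse cumulus too. The part of this list in the SFRP4 values was not tested.

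SFRP1, another frizzled-related antagonist, overlapped between NC1 and C1 and was lower on most C2 arrays. In NC1 it ranged from 0.25 to 2.02 with a median of 1.51, and in C1 from 0.87 to 2.34 with a median of 1.79. In C2 it was -2.76, -0.92, 1.51, 0.78 and -3.31 in replicates 1 to 5. C2 arrays 1, 2 and 5 were below every C1 and NC1 array, whereas arrays 3 and 4 lay within the NC1 range. The C2 difference was -2.65 (SE 0.68) from C1 and -2.27 (SE 0.68) from NC1, and C1 differed from NC1 by 0.38 (SE 0.65).

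For SFRP1, the C2 arrays of day 1 lay farthest from C1. The difference of C2 from C1 was -4.36 on day 1 and -0.25 on day 2, and of the 5 C2 arrays array 3 alone was within the range of all C1 arrays. Without C2 arrays 1 and 5 the call against C1 was lost, and it was also lost when C2 array 1, C2 array 5, C1 array 1 or C1 array 6 was left out. Against NC1, SFRP1 was not called, and it became so in 6 of 32 alternatives, among them those without C2 array 3, without array 4 and without both.

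SFRP2 was near background on many arrays, and its probe was not valid. Its signal exceeded background clearly on 4 of 6 NC1, 2 of 6 C1 and 4 of 5 C2 arrays. In C2 the level was 1.76, -4.78, 0.69, -1.22 and 1.76 in replicates 1 to 5, of which that of replicate 2 was not well above background. NC1 levels ran from -5.47 to 0.85 and C1 levels from -6.16 to -3.16. C2 arrays 1, 3, 4 and 5 were above all C1 arrays, and the NC1 arrays overlapped both other stages. No fold is given, since part of the arrays of each stage held only a bound.

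DKK3, a divergent member of the Dickkopf family, was higher in C2. With its valid probe, the level in NC1 ranged from 2.82 to 5.92 with a median of 3.87, and in C1 from 2.30 to 5.25 with a median of 4.44. In C2 it was 5.28, 8.28, 6.04, 6.28 and 5.43 in replicates 1 to 5. All C2 arrays were above all C1 arrays, the closest being at 5.28 and 5.25, and 2 of the 5 lay within the NC1 range. The C2 difference was 2.12 (SE 0.64) from C1 and 2.22 (SE 0.64) from NC1.

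The DKK3 difference lay at the edge of the threshold. Only that from NC1 was called, and this call held in 13 of 32 alternatives. C2 was higher than NC1 by 1.77 on day 1 and by 2.64 on day 2. C2 array 2 held the highest DKK3 level. The call against NC1 was lost when any 1 of NC1 arrays 2, 3, 4 and 6, C1 arrays 1, 2, 3 and 5 or C2 arrays 2, 3 and 4 was left out, and a call against C1 was gained without NC1 array 5, C1 array 6, C2 array 1 or C2 arrays 1 and 5. A second DKK3 probe, A_73_116131, was not valid, being well above background on 0 of 6 NC1 arrays, 4 of 6 C1 arrays and 5 of 5 C2 arrays. It read -1.64, -1.49, -0.97, -0.88 and -2.10 in C2, above every C1 array (-4.78 to -3.46) and every NC1 array (-4.38 to -3.55). C2 was at least 5.92-fold higher than NC1 by this probe, a bound for which each NC1 array took the higher of its measured value and its lowest signal well above background. Both probes placed C2 above C1, and C2 array 2 stood out with the valid probe only.

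**Figure D1:**
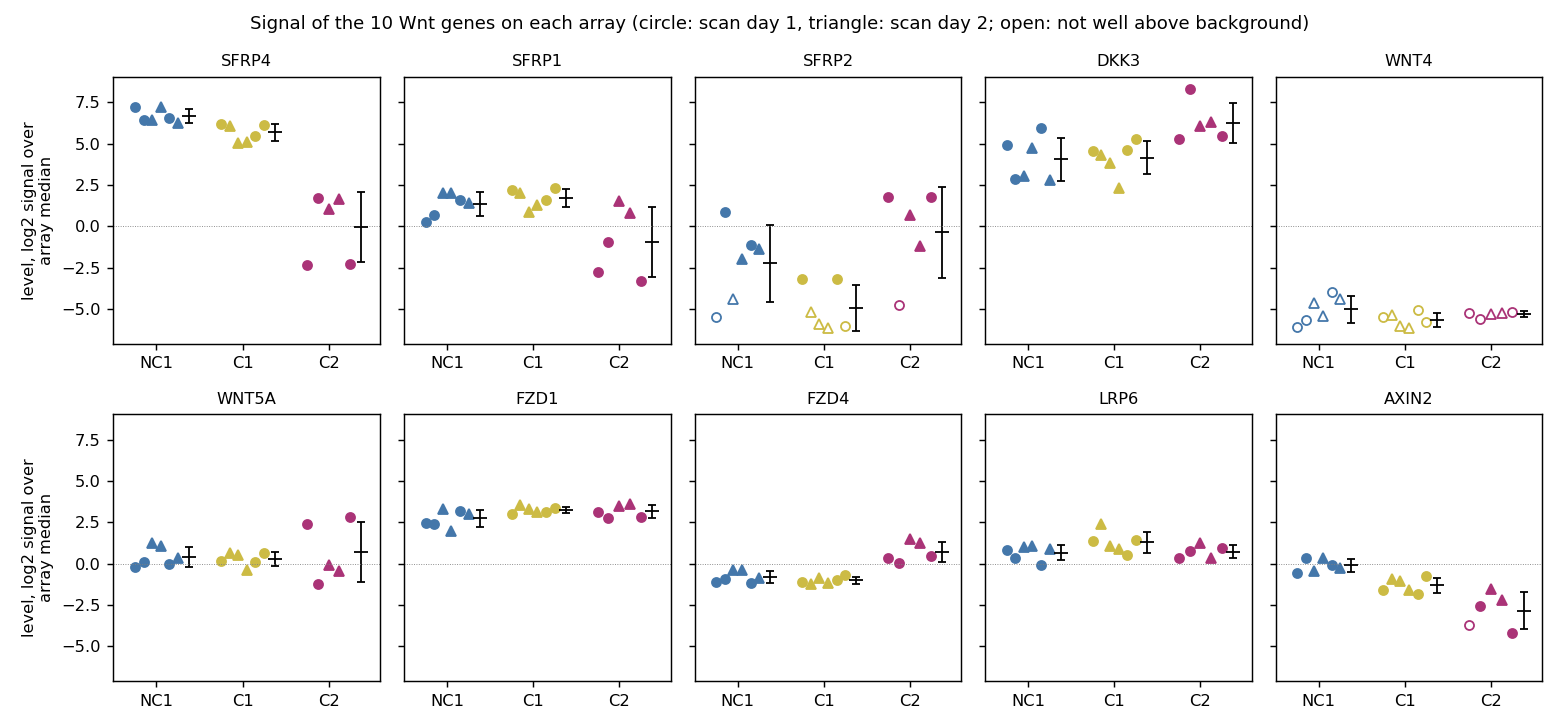
Level (log2 signal over the array's median, y axis) of the 10 genes on each array by stage (x axis), 1 probe a gene, with the mean and SD of each stage as a bar to the right of its points; circles were scanned on day 1 and triangles on day 2, and open symbols were not well above background. SFRP4 sits at 5.06 or above on every NC1 and C1 array and at 1.73 or below on every C2 array, and levels are to be compared within a panel only.

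WNT4, a ligand of ovarian development, was well above background on none of the 17 arrays, so no difference between stages is given. WNT5A, which mostly signals outside the beta-catenin route, ranged from -0.22 to 1.23 in NC1 (median 0.24) and from -0.38 to 0.67 in C1 (median 0.35) with its valid probe. In C2 it was 2.38, -1.22, -0.10, -0.45 and 2.84 in replicates 1 to 5. C2 arrays 1 and 5 were above every C1 and NC1 array, array 3 lay within both ranges, and arrays 2 and 4 lay below both. The mean difference of C2 from C1 was 0.41 (SE 0.57, 95% interval -0.79 to 1.62), so that the stage means did not show the split.

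The second WNT5A probe, A_73_102926, also set C2 arrays 1 and 5 apart. It read -0.96, -4.03, -3.71, -4.87 and -0.61 in C2 replicates 1 to 5, where arrays 2, 3 and 4 were not well above background, against -2.80 to -2.29 in NC1 and -2.91 to -2.03 in C1. C2 arrays 1 and 5 were thus above, and the other C2 arrays below, all arrays of the other stages. C2 differed from C1 by 1.05 on day 1 and by -0.55 on day 2 with the valid probe. Summed leukocyte marker signal was 15 and 20.7 on C2 arrays 1 and 5 against 2.28 to 9.3 on the other C2 arrays and 2.16 to 10.3 on the NC1 and C1 arrays. Its part in the WNT5A split was not tested.

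FZD1, a Frizzled receptor, was not called in any comparison. Its level ranged from 1.99 to 3.30 in NC1 and from 2.98 to 3.56 in C1, and it was 3.10, 2.73, 3.50, 3.62 and 2.83 in C2 replicates 1 to 5. The stages overlapped in each comparison. The C2 difference from C1 was -0.08 (SE 0.24, 95% interval -0.59 to 0.42), and that of C1 from NC1 was 0.51 (SE 0.23).

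FZD4, the Frizzled receptor that also binds norrin, was higher in C2. In NC1 it ranged from -1.19 to -0.36 with a median of -0.90, and in C1 from -1.21 to -0.68 with a median of -1.06. In C2 it was 0.33, 0.04, 1.48, 1.24 and 0.48 in replicates 1 to 5. All C2 arrays were above all NC1 and C1 arrays, with arrays 3 and 4 the highest, and NC1 and C1 overlapped. The C2 difference was 1.73 (SE 0.25) from C1, a 3.31-fold higher signal, and 1.52 (SE 0.25) from NC1, and C1 differed from NC1 by -0.21 (SE 0.24).

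Of these genes, FZD4 and SFRP4 were called in both C2 comparisons under each of 32 alternatives. FZD4 was higher in C2 than in C1 by 1.22 on day 1 and by 2.46 on day 2, and on 5 of 5 slides. The summed signal of the theca and stroma markers was 302 to 605 in C2, 199 to 311 in C1 and 174 to 309 in NC1, and that of the endothelial markers was 2.95 to 11.6, 1.66 to 2.05 and 1.8 to 3.28. Of 9 theca and stroma markers with a valid probe, LUM rose by 3.79 (SE 0.48) and COL1A1 by 1.15 (SE 0.25) against C1, whereas TCF21 fell by 2.03 (SE 0.44), and the median difference was -0.25. Of 6 endothelial markers with a valid probe, KDR rose by 3.58 (SE 0.50) and 0 fell against C1, with a median difference of -0.08, and TEK fell by 1.61 (SE 0.23) against NC1. CDH5, which is also an endothelial marker, was well above background on no array. The part of these lists in the FZD4 difference was not tested.

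LRP6, the co-receptor that passes the signal of Wnt and Frizzled, was read by 3 valid probes, of which 2 target predicted transcripts described only as similar to it. The brightest, A_73_117043, ranged from -0.10 to 1.05 in NC1 and from 0.55 to 2.39 in C1, and read 0.31, 0.75, 1.23, 0.34 and 0.97 in C2. The stages overlapped. C2 differed from C1 by -0.57 (SE 0.30) with this probe, by -0.69 (SE 0.27) with A_73_106248 and by -0.61 (SE 0.31) with A_73_118660, and none of them was called. Against NC1 the 3 probes did not share a direction, at 0.05 (SE 0.30), -0.16 (SE 0.27) and -0.93 (SE 0.31) in the same order.

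AXIN2, a scaffold of the destruction complex and a widely used beta-catenin target, was highest in NC1, lower in C1 and lowest in C2 with its brighter probe, A_73_110169. In NC1 it ranged from -0.54 to 0.35 with a median of -0.17, and in C1 from -1.86 to -0.75 with a median of -1.33. In C2 it was -3.72, -2.56, -1.54, -2.19 and -4.20 in replicates 1 to 5. All C1 arrays were below all NC1 arrays, and all C2 arrays but array 3 were below all C1 arrays. C2 differed by -1.55 (SE 0.38) from C1 and by -2.73 (SE 0.38) from NC1, and C1 differed by -1.19 (SE 0.36) from NC1.

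C2 arrays 1 and 5 again gave the lowest AXIN2 levels, and on array 1 the probe was not well above background. The difference of C2 from C1 was -2.09 on day 1 and -0.67 on day 2. The call against C1 was lost without C2 array 1, without C2 arrays 1 and 5, and with the normexp background correction, where the difference was -0.40. The second probe, A_73_108476, targets a predicted transcript described as similar to axin 2 that had no gene in the RefSeq table. It read -2.30, -2.00, -2.19, -2.04 and -2.05 in C2, with stage means of -2.18 ± 0.22 (SD, n = 6) in NC1, -1.96 ± 0.34 (SD, n = 6) in C1 and -2.11 ± 0.12 (SD, n = 5) in C2. Its C2 difference from C1 was -0.15 (SE 0.18), so the pattern of AXIN2 rests on 1 of its 2 probes.

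**Figure D2:**
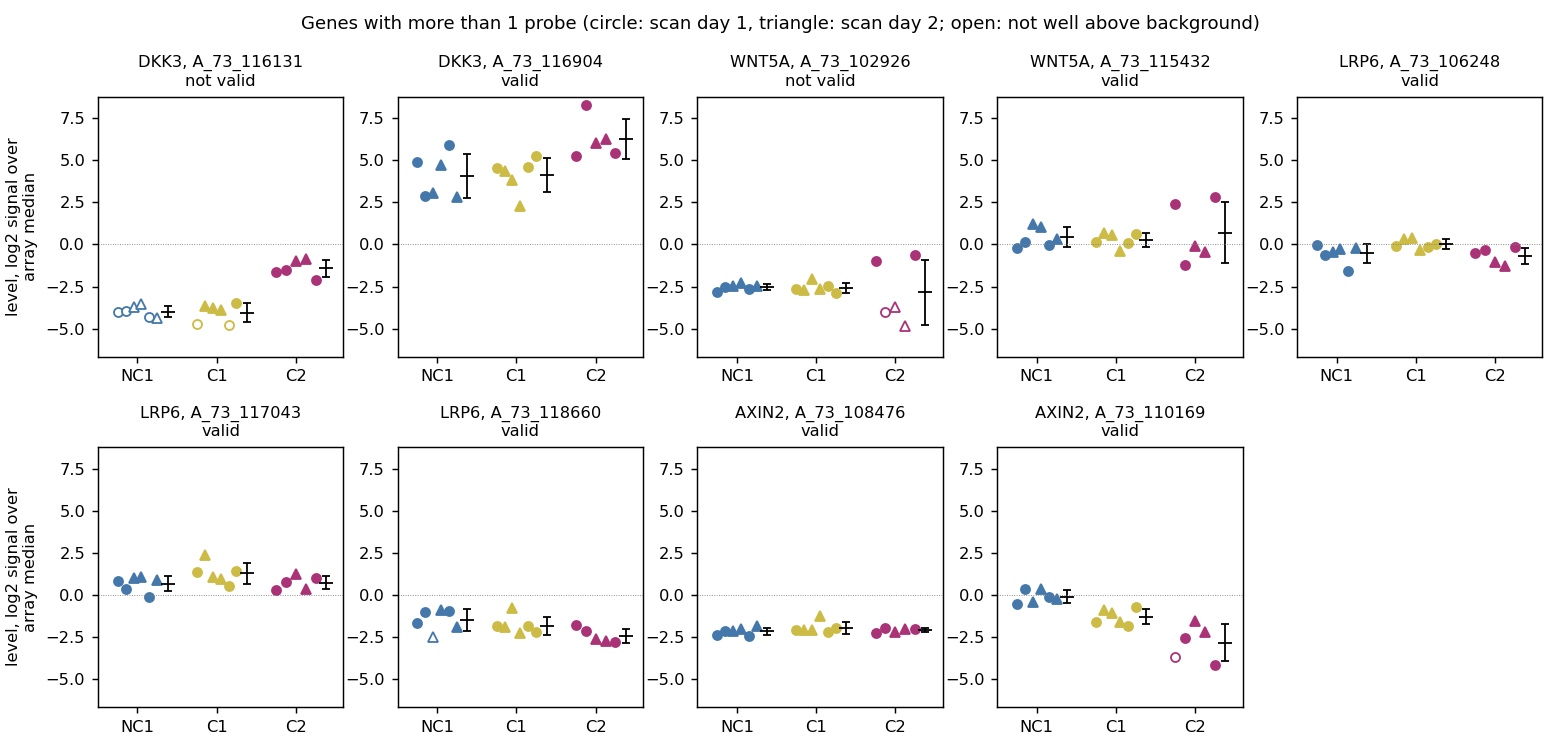
Level (log2 signal over the array's median, y axis) by stage (x axis) for each probe of DKK3, WNT5A, LRP6 and AXIN2, 1 panel a probe, with the mean and SD of each stage beside its points, circles for scan day 1, triangles for scan day 2 and open symbols where the probe was not well above background. Both WNT5A probes set C2 arrays 1 and 5 above the other C2 arrays, whereas only 1 of the 2 AXIN2 probes differs between the stages.

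Of the 10 genes, 8 had a valid probe, the exceptions being SFRP2 and WNT4. Against C1, C2 was called higher for 1 of the 8 (FZD4) and lower for 3 (SFRP4, SFRP1 and AXIN2), where 15.3% of all genes were called higher and 13% lower. The arrays did not overlap for 2 higher genes (DKK3 and FZD4) and 1 lower gene (SFRP4), where 10.6% of all genes were higher and 11.2% lower without overlap. Against NC1, 2 were called higher (DKK3 and FZD4) and 2 lower (SFRP4 and AXIN2), beside 15.5% and 12.7% of all genes. FZD4 was higher, and SFRP4 and AXIN2 lower, without overlap, beside 10.6% and 10.5% of all genes. Between C1 and NC1, limma called 0 of the 8, with 2 higher and 1 lower at an unadjusted p under 0.05, and it called 0.00766% of all genes higher and 0.0383% lower. SFRP4 and AXIN2 were lower in C1 than in NC1 without overlap, and no gene was higher so, beside 1.21% and 0.888% of all genes. The median difference over the 8 genes was -0.33 from C1, against 0.02 over all genes, and 0.16 from NC1, against 0.11. The 3 comparisons share arrays, and nothing about the genes is read from these counts.

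**Figure D3:**
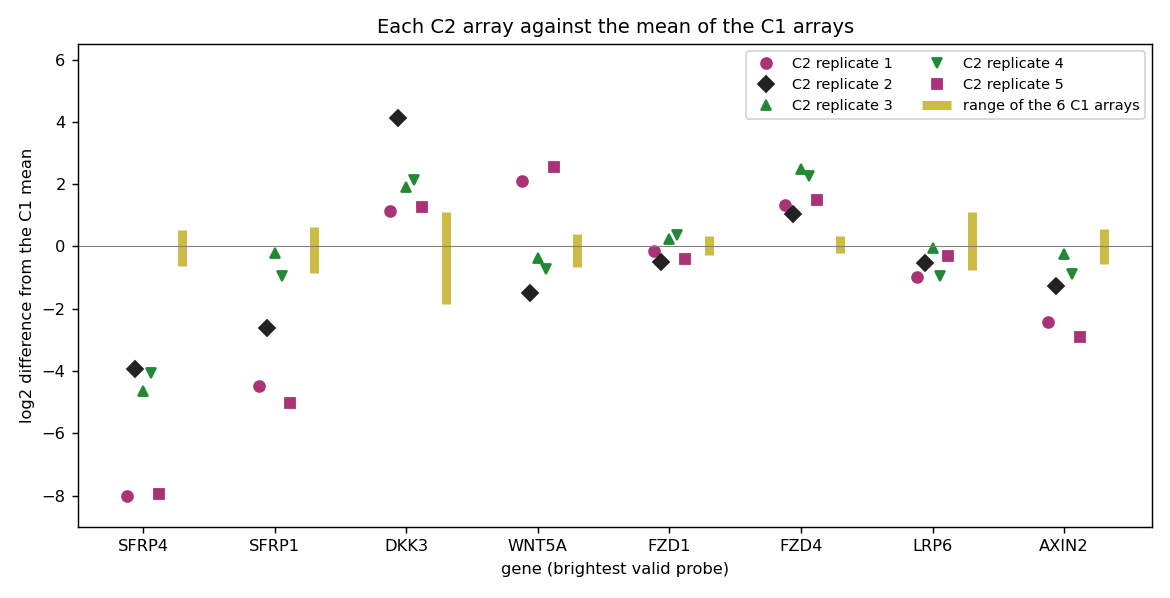
Log2 difference (y axis) of each C2 array from the mean of the C1 arrays for the 8 genes with a valid probe (x axis), with the range of the 6 C1 arrays as a vertical bar. C2 arrays 1 and 5 lie together and apart from arrays 3 and 4 for SFRP4, SFRP1, WNT5A and AXIN2. They do so by a smaller gap for FZD4, DKK3 and FZD1, and not for LRP6. Array 2 lies highest for DKK3.

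Across the 17 arrays, the levels most like those of SFRP4 by Pearson's r were PRSS12 (0.981), RASL11B (0.979), CA14 (0.975), ESR2 (0.974) and FANCI (0.972), and the most opposite were CFAP221 (-0.973), PDLIM5 (-0.967) and BZRP (-0.963). PRSS12 encodes a serine protease, CA14 a carbonic anhydrase, ESR2 an estrogen receptor and BZRP the peripheral benzodiazepine receptor. Among the genes of the present set, r with SFRP4 was 0.902 for AXIN2, 0.826 for SFRP1, 0.190 for LRP6, -0.214 for FZD1, -0.426 for WNT5A, -0.486 for DKK3 and -0.761 for FZD4. These values share the difference of C2 from the other stages, and each C2 array weighs on all of them.

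The remaining genes of the pathway were taken from a list of 99 genes, of which 93 were on the array and 63 had a valid probe. Against C1, C2 was called higher for 6 of the 63 (9.52%) and lower for 15 (23.8%), where 15.3% and 13% of all genes were called, with a median difference of -0.15 against 0.02 over all genes. Against NC1, it was called higher for 4 (6.35%) and lower for 14 (22.2%), where 15.5% and 12.7% of all genes were called, with a median of -0.02 against 0.11 over all genes. Between C1 and NC1, limma called 0 of the 63, with 4 higher and 2 lower at an unadjusted p under 0.05. Of 16 ligands on the array, 4 had a valid probe. WNT11, WNT2B, WNT7A, WNT10B, WNT5B, WNT8B, CTNNB1, FRAT2, DKKL1, SFRP5, FRZB, SOSTDC1, DKK1, TCF7L1 and LEF1 are named for their role, chosen after their values were seen. ZNRF3, TCF7 and TCF7L2 are named as called genes of the target list below, and the others by the size of their difference.

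Among the 4 ligands with a valid probe, WNT6, WNT11 and WNT2B fell in C2 in both comparisons, and WNT7A was not called. Of ligands without a valid probe, WNT10B was well above background on 4 of 6 NC1, 4 of 6 C1 and 5 of 5 C2 arrays. All its C2 arrays lay above all C1 arrays and overlapped NC1. WNT5B was well above background on 6, 4 and 2 arrays and WNT8B on 5, 6 and 3, both with their lowest mean in C2. WNT6 fell by 1.95 (SE 0.26) against C1 and by as much against NC1, and its C2 arrays did not overlap either stage. Of 2 genes of ligand secretion, WLS, which carries Wnt proteins to the cell surface, was higher against C1 by 0.94 (SE 0.27).

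Of 9 other receptors with a valid probe, 1 was called higher and 3 lower against C1. FZD9 fell by 3.05 (SE 0.27) and ROR2, a WNT5A receptor, by 3.05 (SE 0.31), and neither overlapped C1. Against NC1, FZD9 fell by 3.44 (SE 0.27), and ROR2 fell by 3.05 (SE 0.31). FZD7 rose by 1.90 (SE 0.38) against C1 with its brightest probe, and its second valid probe gave 0.38 (SE 0.19), which was not called. FZD6 rose by 2.61 (SE 0.44) against NC1.

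Of the genes listed as Wnt inhibitors outside the set, 4 had a valid probe. DKKL1, placed there as a Dickkopf-like gene, was the one called, falling by 1.17 (SE 0.20) against C1 and by 0.82 (SE 0.20) against NC1. SFRP5, another frizzled-related protein, differed by -0.56 (SE 0.21) from C1 and was not called. Of the inhibitors without a valid probe, FRZB, also a frizzled-related protein, was well above background on 6 of 6 NC1, 6 of 6 C1 and 1 of 5 C2 arrays, with means of -0.95 ± 0.89 (SD, n = 6), -1.42 ± 0.40 (SD, n = 6) and -4.53 ± 1.15 (SD, n = 5). SOSTDC1 was well above background on 6 NC1, 3 C1 and 0 C2 arrays and was at least 18.0-fold higher in NC1 than in C2. DKK1 was so on 0 NC1, 3 C1 and 4 C2 arrays, and all its C2 arrays lay above all NC1 arrays. No fold is given for DKK1, since not all of its C2 arrays were well above background. These 3 probes were not valid and did not enter the counts over the list.

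In the cytoplasm, CTNNB1, which encodes beta-catenin, fell by 1.27 (SE 0.29) against C1 and by 1.09 (SE 0.29) against NC1. FRAT2, which binds the kinase GSK3, fell by 1.24 (SE 0.25) and 1.82 (SE 0.25), and GSK3B was higher against NC1 by 0.91 (SE 0.23). Of 20 genes of this group, 2 were called higher and 2 lower against C1, and FBXW11, a subunit that marks beta-catenin for degradation, rose by 0.92 (SE 0.23). ZNRF3, a ligase that removes Frizzled receptors, fell by 1.83 (SE 0.22) against C1.

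In the nucleus, TLE2, a co-repressor of TCF factors, fell by 3.12 (SE 0.31) against C1 and by 3.00 (SE 0.31) against NC1. TCF7 fell by 1.91 (SE 0.41) and TCF7L2 by 1.25 (SE 0.23) against C1, and PYGO1, a beta-catenin co-factor, rose by 1.32 (SE 0.28). LEF1 differed by -0.65 (SE 0.38) from C1 and was not called. TCF7L1, without a valid probe, was well above background on 3 of 6 NC1, 5 of 6 C1 and 5 of 5 C2 arrays. All its C2 arrays lay above all NC1 and C1 arrays. In the planar polarity branch, DAAM2, a formin that binds Dishevelled, fell by 3.14 (SE 0.27), and PRICKLE1 rose by 3.05 (SE 0.28) against C1 and by 2.47 (SE 0.28) against NC1. DAAM2, TLE2, FZD9, ROR2 and PRICKLE1 showed no overlap of the C2 arrays with C1 or NC1.

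**Figure D4:**
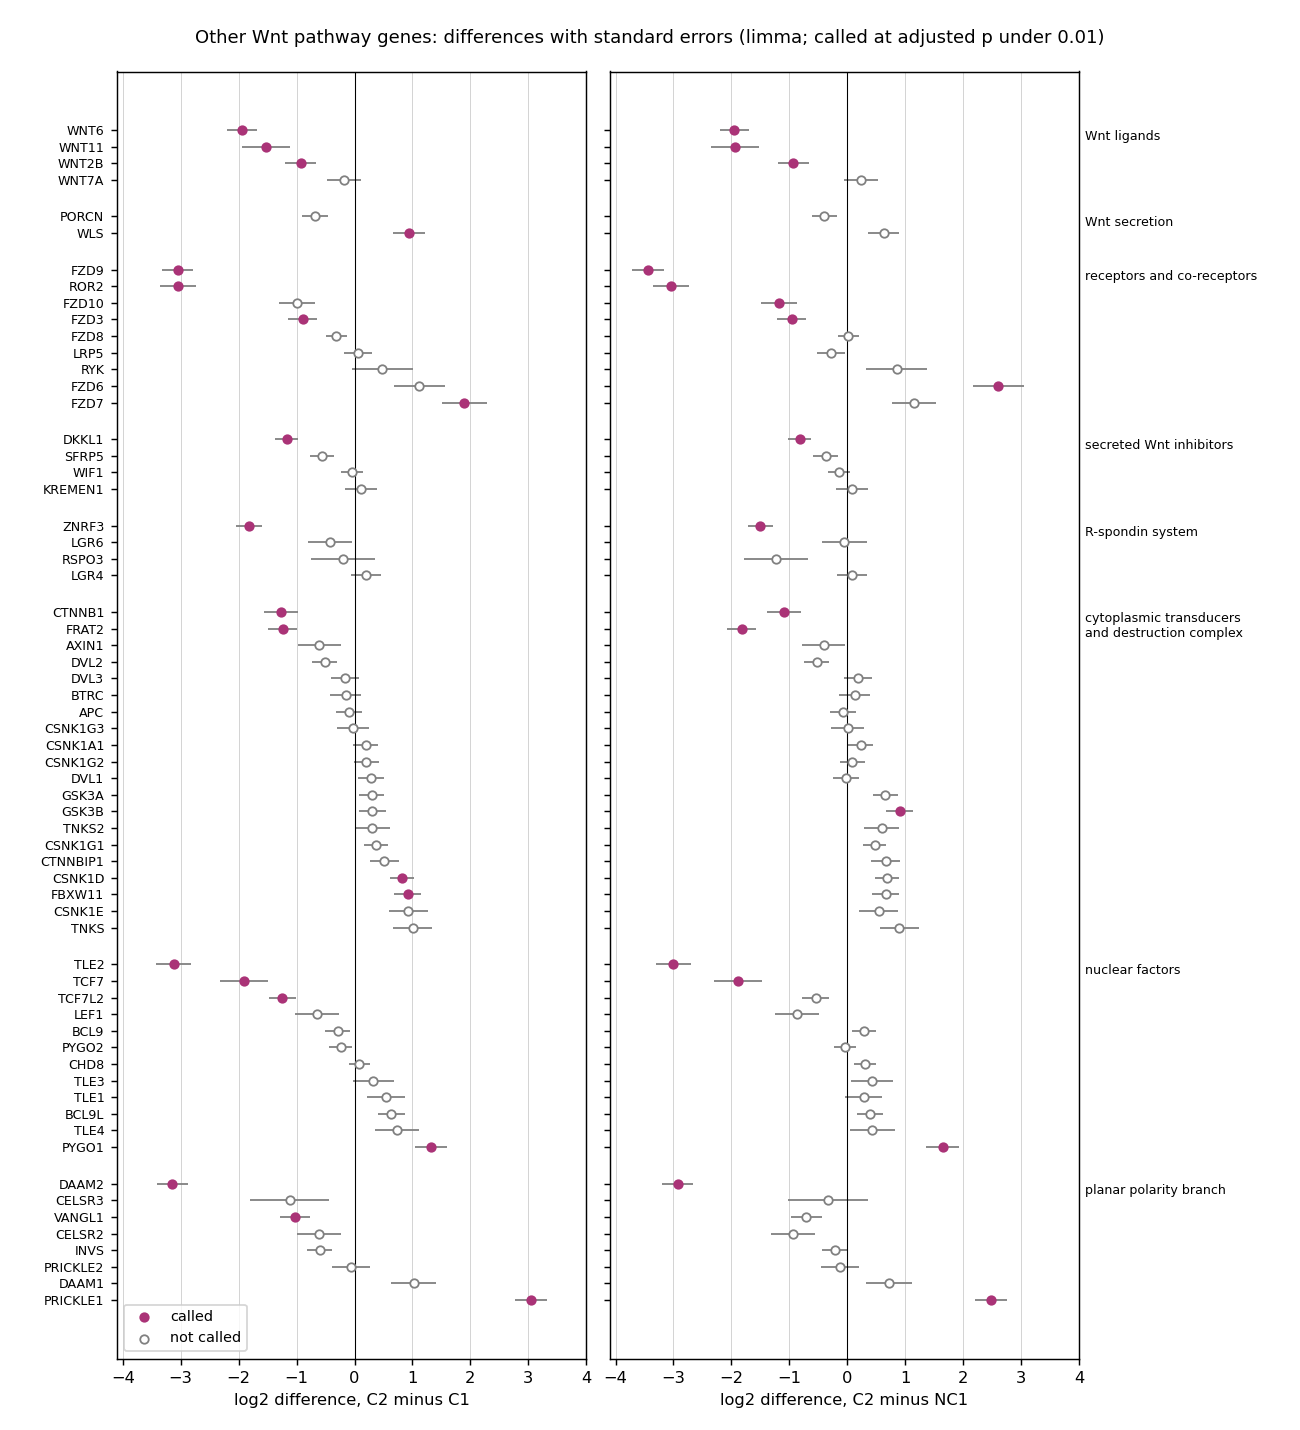
Log2 difference (x axis) of C2 from C1 (left) and from NC1 (right) for the 63 listed Wnt pathway genes with a valid probe (y axis), grouped by role, with bars for the standard error of the limma fit and filled points for genes called at an adjusted p under 0.01. FZD9, ROR2, TLE2 and DAAM2 lie near -3 in both panels and PRICKLE1 lies above 2.

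A second list held 22 genes known as beta-catenin targets in other tissues, 13 of them with a valid probe. Against C1, 2 were called higher (15.4%) and 4 lower (30.8%), beside 15.3% and 13% of all genes. Against NC1, 0 were called higher and 4 lower (30.8%), beside 15.5% and 12.7% of all genes, and limma gave 3 higher at an unadjusted p under 0.05. MYC, a growth regulator, fell by 4.78 (SE 0.62) against C1 and by 4.64 (SE 0.62) against NC1, and FOSL1, a member of the AP-1 family, fell by 2.34 (SE 0.66) against NC1. CLDN1, a tight junction protein, was higher against C1 by 3.47 (SE 0.97), and CCND1, cyclin D1, by 2.44 (SE 0.64). The other genes called were TCF7, ZNRF3 and TCF7L2, which the pathway list holds too. The higher calls rested on few arrays, and without C2 arrays 1 and 5 there were 0 higher and 6 lower against C1. The median difference over the 13 genes was -0.43 against C1 and -0.46 against NC1. Listed genes without a valid probe did not enter these values. Of them, DKK1 was well above background on 0 of 6 NC1, 3 of 6 C1 and 4 of 5 C2 arrays. SP5 was so on 0, 0 and 3 arrays, and LGR5 on 1, 3 and 3. All C2 arrays lay above all NC1 arrays for DKK1 and above all C1 arrays for LGR5. CD44 was well above background on 1 C2 array, CDX2 on 1 C1 array and NKD1 on none.

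Markers of other cells also differed between the stages. The summed signal of 9 oocyte markers was 54.2 to 128 in NC1, 5 to 49.5 in C1 and 3.31 to 7.78 in C2, and BMP15, ZP2, DDX4, FIGLA and ZAR1 were well above background on no C2 array. The oocyte list, SFRP4 and AXIN2 thus had the same order of stages, and the part of the list in these genes was not tested. Of 6 leukocyte markers on the array, CD3E was well above background on no NC1 or C1 array, and CD14 and LYZ rose in C2 against C1. The red blood cell markers gave 0.498 to 0.769 over all arrays.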

How the data were processed

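RNA of 17 cumulus cell samples (6 NC1, 6 C1 and 5 C2) was measured on Agilent 1-colour arrays, with 0.35 µg of RNA labelled. The authors deposited, for each array, the scanner output with a processed signal intensity per spot, already background-subtracted by Feature Extraction 10.5.1.1 according to the submitters' processing notes. A table of log2 values, which the authors had scaled by each array's median in GeneSpring, was deposited too and served as an alternative. No genome build is given in the sources used here, so no positions are printed.

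Usable spots (uniform and not flagged as outliers) of a probe were averaged on the log2 scale and each array's median over probes was subtracted. Presence of a probe required 50% or more of its spots on the array to be well above background, uniform and not saturated. Validity required presence on 80% or more of the arrays in every stage. The 3 stages were fitted together with limma 3.58.1 (lmFit and eBayes) in R 4.3.3, without covariates, and p-values were adjusted by Benjamini-Hochberg over all valid probes and called under 0.01. A gene was represented by its brightest valid probe. The fit was tested on simulated data with independent noise of the C1 spread in all stages. That test does not cover the wider spread and the close pairs of the C2 arrays. The precision is limited by the number of arrays.

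The 10 genes, the pathway, target and marker lists and the tests were chosen with earlier results of these data known. The genes named were the 10 with every probe, the 5 called pathway genes with the largest rise and fall in each comparison, every called target gene up to 5 each way, and the 5 most and 3 least like SFRP4. Further pathway and target genes, some without a valid probe, were named after their values were seen. Marker lists were given by their counts, their summed signal and the genes not above background. Alternatives covered scaling, background correction, the filter on dim probes, blocks, array weights, spots, the probe of a gene and arrays left out. Values within each scan day and without C2 arrays 1 and 5, or 3 and 4, were added after seeing the data.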

Additional observations from a re-analysis of the deposited data

Results flagged for a closer look

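Of 30 groups of arrays checked (the 10 genes in 3 stages), 1 had an array far from the others of its stage. WNT4 on C2 array 2 was at -5.63, whereas the other 4 C2 arrays were at -5.27 to -5.19. About 1 in 20 groups is singled out in this way by chance, and WNT4 was well above background on none of the 17 arrays.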

How the results depend on the processing

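No difference of the 10 genes changed direction where it had been called. SFRP4 ranged from -6.91 to -4.07 against C1 and from -7.76 to -5.21 against NC1, and with the replicate block it was -5.71 and -6.72. Replicate numbers were not taken to pair the samples, since the stages came from different animals. Deviations of same-numbered arrays correlated at -0.317 to -0.0735 between NC1 and C1. They correlated at -0.0746 to 0.159 between NC1 and C2 and at -0.216 to 0.252 between C1 and C2. Arrays of unlike number were not compared in this way, so these values alone do not settle pairing. With the replicate block, the pathway list gave 5 higher and 11 lower against C1, and 4 and 11 against NC1. Against C1, its 6 higher calls became 3 with normexp, with the C2 pairs averaged, and without C2 arrays 3 and 4. Against NC1, its 4 higher calls became 7 without a filter and without C2 arrays 1 and 5, and its 14 lower calls became 9 with normexp. Array weights gave 1 higher call between C1 and NC1. The 2 higher target genes against C1 became 1 with the 75th percentile, quantile, normexp, the replicate block or the slide block, and 0 with the C2 pairs averaged or without C2 arrays 1 and 5. Against NC1 their 0 became 1 without a filter and 2 with array weights, which also gave 1 lower target gene between C1 and NC1. Of the 10 genes, the 1 higher against C1 became 2 without a filter and without C2 arrays 1 and 5, where the 3 lower became 1. The 2 higher against NC1 became 1 with the 75th percentile, quantile, no filter, the replicate block, the slide block, array weights, the C2 pairs averaged, or C2 arrays 3 and 4 left out, and array weights gave 1 lower between C1 and NC1. With 1 array left out, the pathway list gave 3 to 8 higher and 11 to 15 lower against C1 (3 without C2 array 3) and 3 to 8 higher and 11 to 14 lower against NC1 (8 without C2 array 2). The target list gave 0 to 3 higher against C1 (0 without C1 array 3, 4 or 6) and 0 to 2 higher and 3 to 5 lower against NC1. The 10 genes gave 1 to 2 higher and 1 to 3 lower against C1 (1 lower without C2 array 1), and 1 to 2 higher and 2 to 3 lower against NC1. The methods' one-factor test called 17 pathway genes where the moderated test over the 3 stages called 19, and 4 target genes where that called 4. The causes of these changes were not tested.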
